A study of Mus musculus with 12 samples.

Results

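The 9 genes studied here belong to retinoic acid metabolism and signaling and were examined in sorted Pdgfra+ cells of the mouse lung. They were chosen by name, as the 9 rows carrying these gene symbols among the 40760 genes of the deposited tables. These genes and the lists of pathway genes below were chosen with earlier results of these data known. Setting them against all genes is therefore a description only. Aldh1a1, Aldh1a2 and Aldh1a3 encode the enzymes that make retinoic acid, Rbp4 and Crabp1 encode carriers, Rara, Rarb and Rarg encode the nuclear receptors, and Cyp26b1 encodes an enzyme that breaks retinoic acid down. All 9 passed the filter on low counts, under which 17418 genes were tested. The cells came from WT and Pear1-/- male mice that had received vehicle or bleomycin (bleo), a drug that injures the lung and leaves fibrosis, with 3 libraries in each of 4 groups, called WT vehicle and WT bleo for the wild type, and Pear1-/- vehicle and Pear1-/- bleo for the knockout. All were young adults of the C57BL/6 background. Bleo was given as an aerosol into the trachea, and its dose and day for these libraries are not given in the sources used here. Pear1-/- mice carried the knockout-first tm1a allele in every cell, in which a trapping cassette in an intron of Pear1 cuts the transcript short without removing its exons. Cells were taken from whole lung by their surface CD140a, the protein of Pdgfra, and the number of mice behind a library is not given in the sources used here, so that p-values measure the spread between these libraries only.

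Retinol reaches cells on the plasma carrier RBP4, is stored as retinyl ester, and is oxidized first to retinal and then, by the Aldh1a enzymes, to retinoic acid. Retinoic acid enters the nucleus, binds receptors of the Rar family paired with Rxr partners, and so switches genes that carry a response element, while the Cyp26 enzymes clear it. In the lung this pathway is known for its part in forming alveoli, and lipid-storing fibroblasts of the alveolar wall are known as a store of retinyl esters.

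Promoters of Rarb, Cyp26b1 and Rbp4 are shown because Rbp4 had the steepest fall among the 9 genes, Cyp26b1 the largest difference between the genotypes, and because that of Rarb holds a retinoic acid response element, the feature by which the receptor gene is itself a known target of retinoic acid. The sequences are those of RefSeq on GRCm38.p6, each with 250 bases before and 50 after a transcription start, 5′ to 3′ on the gene's strand. RefSeq gives Rbp4 a second start upstream, whose promoter holds no TATAAA and is not shown. Capitals mark the direct repeat of the response element in Rarb and the letters TATAAA in the other genes.
Rarb promoter, chr14:16575427-16575726, minus strand: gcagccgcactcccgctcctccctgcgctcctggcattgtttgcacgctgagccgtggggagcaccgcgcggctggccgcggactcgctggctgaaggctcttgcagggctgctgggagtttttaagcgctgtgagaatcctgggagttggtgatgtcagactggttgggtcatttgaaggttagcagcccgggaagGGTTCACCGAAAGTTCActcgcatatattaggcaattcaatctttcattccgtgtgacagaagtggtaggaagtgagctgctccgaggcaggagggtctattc
Cyp26b1 promoter, chr6:84593761-84594060, minus strand: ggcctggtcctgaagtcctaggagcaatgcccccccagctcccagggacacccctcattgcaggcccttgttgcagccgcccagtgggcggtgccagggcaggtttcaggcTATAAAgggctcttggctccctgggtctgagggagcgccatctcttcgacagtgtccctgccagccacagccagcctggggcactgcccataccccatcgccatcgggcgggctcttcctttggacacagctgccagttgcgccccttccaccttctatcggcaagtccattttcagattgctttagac
Rbp4 promoter, chr19:38124762-38125061, minus strand: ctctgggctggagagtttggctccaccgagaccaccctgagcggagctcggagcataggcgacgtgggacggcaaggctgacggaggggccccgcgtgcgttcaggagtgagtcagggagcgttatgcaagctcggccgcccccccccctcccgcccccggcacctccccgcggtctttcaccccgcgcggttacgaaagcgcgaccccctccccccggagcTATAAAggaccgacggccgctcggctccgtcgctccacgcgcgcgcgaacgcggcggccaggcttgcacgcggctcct

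The response element was searched on both strands as a pair of half-sites, each of them AGGTCA or the variant AGTTCA or the variant GGGTCA or the variant GGTTCA, in the same direction with 1, 2 or 5 bases between them. RefSeq promoters were found for 8 of the 9 genes, with 14 starts in all, and Rarb was the gene among them with a match. Its match, with a spacer of 5, lay between -53 and -37 from the start. Such a repeat was present in 0.0974% of all 32851 promoters, while spacers of 1 and 2 were present in 0.222% and 0.268%. In the promoters found for 26 of 39 further pathway genes, matches lay in Cyp26a1 with a spacer of 5 and in Bco1 with a spacer of 1. Both of these genes had too few counts to be tested, with at most 8 and 15 counts in a library. Promoters on chr18, where the pathway genes Ttr and Cdx1 lie, were not included in these matches. The letters TATAAA, searched on the gene's strand, were present in 8.32% of all promoters. No readout of binding was measured at these sequences.

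The 9 genes lie at separate places in the genome (GRCm38, GENCODE M21). Aldh1a1 (ENSMUSG00000053279) spans chr19:20492715-20643465 on the plus strand and Rbp4 (ENSMUSG00000024990) spans chr19:38116629-38125281 on the minus strand. Rarb (ENSMUSG00000017491) spans chr14:16430839-16819156 and Cyp26b1 (ENSMUSG00000063415) spans chr6:84571414-84593908, both on the minus strand. Rarg (ENSMUSG00000001288) lies on chr15:102234938-102257517, Rara (ENSMUSG00000037992) on chr11:98927818-98974942, Aldh1a2 (ENSMUSG00000013584) on chr9:71215789-71296243, Crabp1 (ENSMUSG00000032291) on chr9:54764748-54773110 and Aldh1a3 (ENSMUSG00000015134) on chr7:66390890-66427517. Rarb shares 34.1% of its exon bases with Top2b and 4.31% with Gm48162, both on the opposite strand, and the cDNA kit does not mark strand, so that reads of the shared bases cannot be assigned to one gene with certainty. Exons of the other 8 genes overlapped no other gene's exons.

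Libraries held between 6702948 and 10447101 counted reads. WT vehicle replicate 2 stood apart from the other WT vehicle libraries: the chi-square of its counts per degree of freedom was 24.5 and 25.6 against them, and 1.71 between replicates 1 and 3. Pear1-/- vehicle replicate 3 differed from replicates 1 and 2 to a lesser degree, at 4.62 and 5.18 against 1.48 between those, and leaving it out changed no call of the 9 genes. Between replicates with bleo the value was 1.36 to 1.49 in WT and 1.37 to 1.49 in Pear1-/-, so that these differed little beyond counting error. Whether the libraries of a group came from separate mice is not given in the sources used here. Values without WT vehicle replicate 2 are given beside the results that this library moved most. Pear1 ranged over 519 to 576 normalized counts in WT vehicle and 501 to 547 in Pear1-/- vehicle. It did not pass the test between the vehicle groups (adjusted p = 0.49). With bleo it was at 239 to 266 in WT and 344 to 372 in Pear1-/-, higher in the knockout with no overlap (log2 fold change 0.48, adjusted p = 7.54e-05 by edgeR), a direction opposite to the label. Counts over the whole gene thus did not show the knockout, counts by exon on either side of the cassette were not analysed here, and WT and Pear1-/- stand throughout for libraries so labelled. Of the marker lists, Pdgfra itself was lower in WT bleo than in WT vehicle (log2 fold change -1.74) and higher in Pear1-/- bleo than in WT bleo (0.80), past the test in both. The summed level of 8 leukocyte markers was 2057 to 2684 CPM (counts scaled to the effective library size) in WT vehicle and 2640.1 to 2783 CPM in Pear1-/- vehicle, against 11552 to 11729.7 CPM in WT bleo and 5205 to 5381 CPM in Pear1-/- bleo. That of 5 epithelial markers was 3928 to 5814 CPM, 5471 to 6401 CPM, 1392 to 1423 CPM and 633 to 640 CPM in the same order, and no marker of either list had 3 or fewer counts in all libraries of a group. In such sorted bulk samples, fewer cells of a type and less RNA per cell cannot be told apart.

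Retinoic acid genes after bleo in WT cells. Of the 9 genes, 6 fell in WT bleo compared to WT vehicle and 2 rose. The falls were those of Rbp4, Rarb, Aldh1a1, Aldh1a3, Cyp26b1 and Rarg, and the rises those of Crabp1 and Rara, whereas Aldh1a2 did not pass the test. A gene passed when its adjusted p in edgeR's quasi-likelihood test was under 0.05, after Benjamini-Hochberg adjustment over all genes tested. By this rule 31.4% of all genes were higher and 36.5% were lower in WT bleo, so that a call in either direction was common. The median log2 fold change was -1.11 over the 9 genes and -0.07 over all genes tested. The same 8 genes passed without WT vehicle replicate 2. Pdgfra itself was lower in WT bleo, and as a percentage of its normalized count in the same library some directions turned. The mean went from 15.4% in WT vehicle to 28.0% in WT bleo for Rarg, from 1.26% to 1.94% for Cyp26b1 and from 2.37% to 3.52% for Aldh1a3, the last with overlap between the groups, while the means of Rbp4, Rarb and Aldh1a1 were lower in WT bleo on this scale too, with overlap for Rarb.

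Aldh1a1, the most abundant of the enzymes, had 4476, 4300.3 and 4382 normalized counts (deposited counts divided by the size factor of the library) in WT vehicle and 1084, 1111 and 1055 in WT bleo. The groups lay far apart and each was narrow, at 4386 ± 88 and 1083 ± 27.8 (SD, n = 3). The log2 fold change was -2.01 (standard error, SE, 0.06, adjusted p = 2.37e-15 by edgeR).

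Rbp4, which encodes the carrier that brings retinol to cells, had 903, 921 and 867 normalized counts in WT vehicle and 116, 117 and 136 in WT bleo. It showed the steepest fall of the 9 genes, with log2 fold change -2.86 (SE 0.1, adjusted p = 5.47e-15 by edgeR), and the groups did not overlap.

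Among the receptors, Rarb fell most. It had 81.3, 134 and 95 normalized counts in WT vehicle, of which the highest was replicate 2, and 21.1, 18.4 and 31.4 in WT bleo. Every WT bleo library lay below every WT vehicle library, and the log2 fold change was -2.12 (SE 0.24, adjusted p = 3.17e-07 by edgeR). Without WT vehicle replicate 2 it was -1.89. Top2b, with which Rarb shares exon bases, had 625 to 762 raw counts in WT vehicle and 764 to 913 in WT bleo. These are not divided by the size factors, which were 0.825 to 0.986 in WT vehicle and 0.981 to 1.09 in WT bleo. A change of Top2b can therefore not be read from them.

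Rarg, the receptor gene with the highest level per exon length in vehicle, had 699.7, 706 and 701 normalized counts in WT vehicle and 403, 328 and 412 in WT bleo. It fell by 0.87 on the log2 scale (SE 0.08, adjusted p = 2.33e-08 by edgeR). Rara had 499.6, 492 and 472 normalized counts in WT vehicle and 574, 499.7 and 593 in WT bleo. The lowest WT bleo library lay at the level of the highest vehicle library, and the rise of 0.20 (SE 0.08, adjusted p = 0.0269 by edgeR) was lost in 6 of the 20 other settings. These were DESeq2's Wald test (adjusted p = 0.0863), edgeR with DESeq2's size factors (adjusted p = 0.0558), edgeR with only the groups compared (adjusted p = 0.0652), and the fits in which WT vehicle replicate 3, WT bleo replicate 1 or WT bleo replicate 3 was left out (adjusted p = 0.0743, 0.0909 and 0.135). Its adjusted p ranged from 0.00564 to 0.135 over all 20.

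Aldh1a3 had 86.1, 137 and 96.2 normalized counts in WT vehicle and 51.4, 37.7 and 54.7 in WT bleo, with log2 fold change -1.14 (SE 0.2, adjusted p = 4.74e-05 by edgeR), or -0.92 without WT vehicle replicate 2. Aldh1a2 had 144, 237 and 159 in WT vehicle and 158, 161 and 145 in WT bleo. Its groups overlapped, and its difference of -0.22 (adjusted p = 0.217) became 0.03 (adjusted p = 0.819) without WT vehicle replicate 2, the one library that lay above the WT bleo range.

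Cyp26b1, the breakdown enzyme, had 76.4, 30.4 and 68.7 normalized counts in WT vehicle and 27.6, 21.4 and 30.4 in WT bleo. Replicate 2 of WT vehicle lay at the level of the highest WT bleo library, and the log2 fold change was -1.11 with it (SE 0.28, adjusted p = 0.00187 by edgeR) and -1.44 without it. Crabp1, which encodes a carrier of retinoic acid inside the cell, was near the limit of detection in vehicle, with 2, 1 and 2 counts in WT vehicle and 10, 10 and 11 in WT bleo. Per library depth the pooled level in WT bleo was 5.54 times that in WT vehicle, with a 95% exact interval of 2.13 to 18.2 that covers counting error only, and it passed edgeR's test (adjusted p = 0.00102, or 0.00501 without WT vehicle replicate 2).

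**Figure D1:**
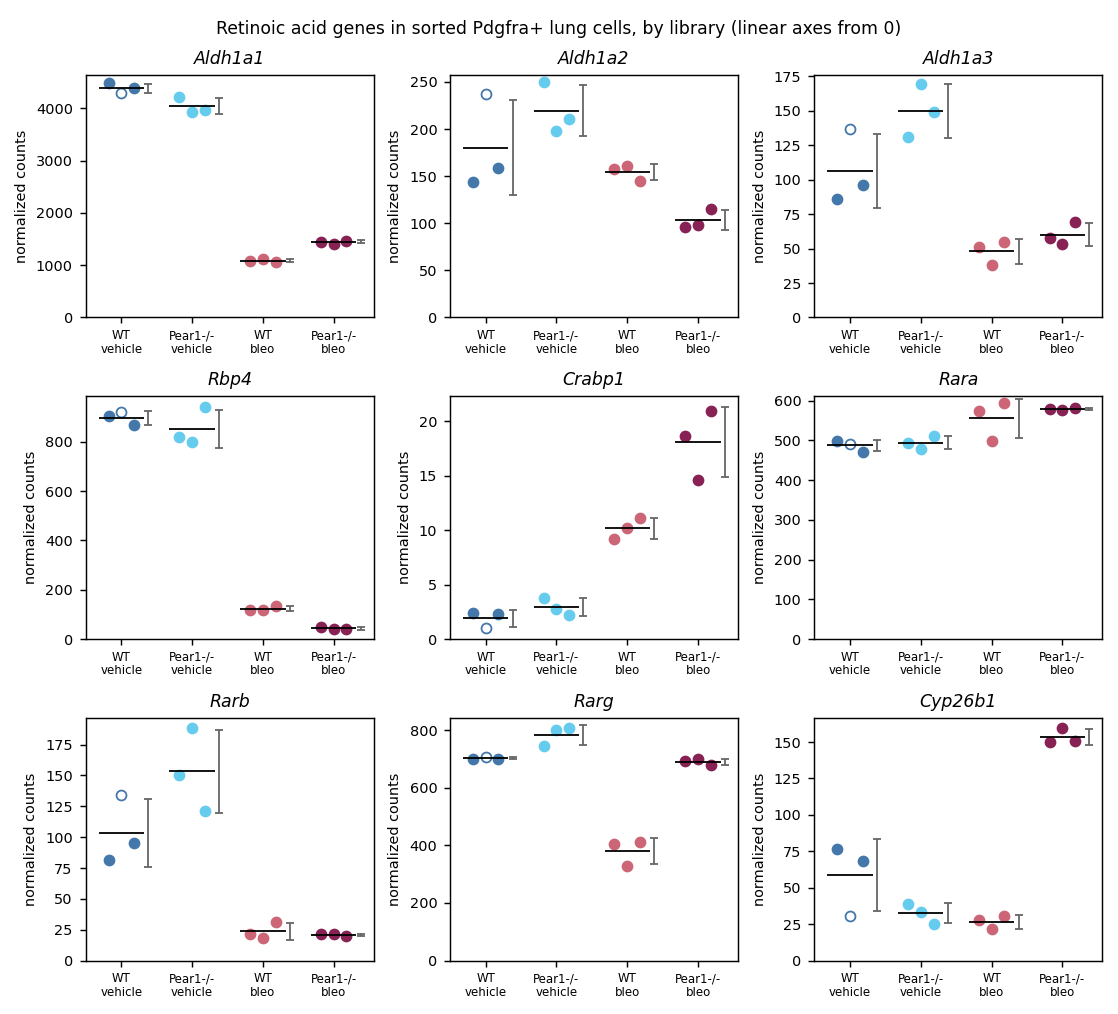
Normalized counts (vertical axis, linear from 0) of each of the 9 genes in the 12 libraries, with points for libraries, lines for group means and bars beside them for the SD (n = 3). The open point is WT vehicle replicate 2, which alone of the WT vehicle libraries lies within the range of Pear1-/- vehicle for Aldh1a2, Aldh1a3, Rarb and Cyp26b1. Cyp26b1 is highest in the 3 Pear1-/- bleo libraries, at 150.1 to 160 normalized counts.

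Retinoic acid genes after bleo in Pear1-/- cells. In total, 5 of the 9 genes fell in Pear1-/- bleo compared to Pear1-/- vehicle, namely Aldh1a1, Aldh1a2, Aldh1a3, Rbp4 and Rarb. Crabp1, Rara and Cyp26b1 rose, and Rarg did not pass the test. Of all genes tested, 29.1% were higher and 33.1% were lower in this comparison. The median log2 fold change was -1.09 over the 9 genes and -0.05 over all genes. As a percentage of Pdgfra, the means of the 5 genes that fell were lower in Pear1-/- bleo too, with overlap between the groups for Aldh1a2, while the mean of Rarg went from 18.8% to 28.9%.

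Rbp4 had 818, 801 and 941 normalized counts in Pear1-/- vehicle and 49.7, 39.5 and 41 in Pear1-/- bleo. The fall (log2 fold change -4.29, SE 0.11, adjusted p = 2e-16 by edgeR) was the steepest of the 9 genes here as well. Aldh1a1 had 4216, 3934 and 3969 in Pear1-/- vehicle and 1449, 1413 and 1469.8 in Pear1-/- bleo, with log2 fold change -1.48 (SE 0.06, adjusted p = 2.81e-13). In both genes the groups did not overlap.

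Rarb had 151, 188 and 121 normalized counts in Pear1-/- vehicle and 21.3, 21.5 and 20 in Pear1-/- bleo. The vehicle libraries were spread over a wide range and the bleo libraries were within 2 counts of each other, and the log2 fold change was -2.86 (SE 0.23, adjusted p = 3.75e-09 by edgeR). Top2b had 630 to 956 raw counts in Pear1-/- vehicle and 953 to 983 in Pear1-/- bleo. The size factors, by which these are not divided, were 0.916 to 1.08 and 1.05 to 1.16 in the same order.

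Aldh1a2 had 250, 198 and 211 normalized counts in Pear1-/- vehicle and 95.9, 98 and 115 in Pear1-/- bleo, a fall of 1.09 on the log2 scale (SE 0.16, adjusted p = 7.77e-06 by edgeR). Aldh1a3 had 131, 170 and 150 against 57.7, 53.3 and 69.6, with log2 fold change -1.32 (SE 0.18, adjusted p = 4.35e-06). All 3 enzyme genes were thus lower in each Pear1-/- bleo library than in any Pear1-/- vehicle library.

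Cyp26b1 moved the other way. It had 38.8, 33.4 and 25.1 normalized counts in Pear1-/- vehicle and 150.1, 160 and 151 in Pear1-/- bleo, a rise of 2.23 on the log2 scale (SE 0.24, adjusted p = 2.33e-07 by edgeR). Crabp1 had 4, 3 and 2 counts in Pear1-/- vehicle and 21, 17 and 22 in Pear1-/- bleo. The pooled ratio per library depth was 6.12 with a 95% exact interval of 3.02 to 14, which covers counting error only, and edgeR gave adjusted p = 9.92e-05.

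Rarg had 744, 800 and 809 normalized counts in Pear1-/- vehicle and 692, 699 and 680 in Pear1-/- bleo. Its difference of -0.18 (SE 0.08) had adjusted p = 0.0541 in edgeR and lay near the threshold. It passed in 6 of the 20 other settings, among them edgeR with DESeq2's size factors (adjusted p = 0.0374), DESeq2's Wald test (adjusted p = 0.0421) and the fit without WT vehicle replicate 2 (adjusted p = 0.0129), and its adjusted p ranged from 0.0129 to 0.373 over all 20. Rara had 493, 478 and 511 against 578, 577 and 582, a rise of 0.23 (SE 0.08, adjusted p = 0.0115).

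**Figure D2:**
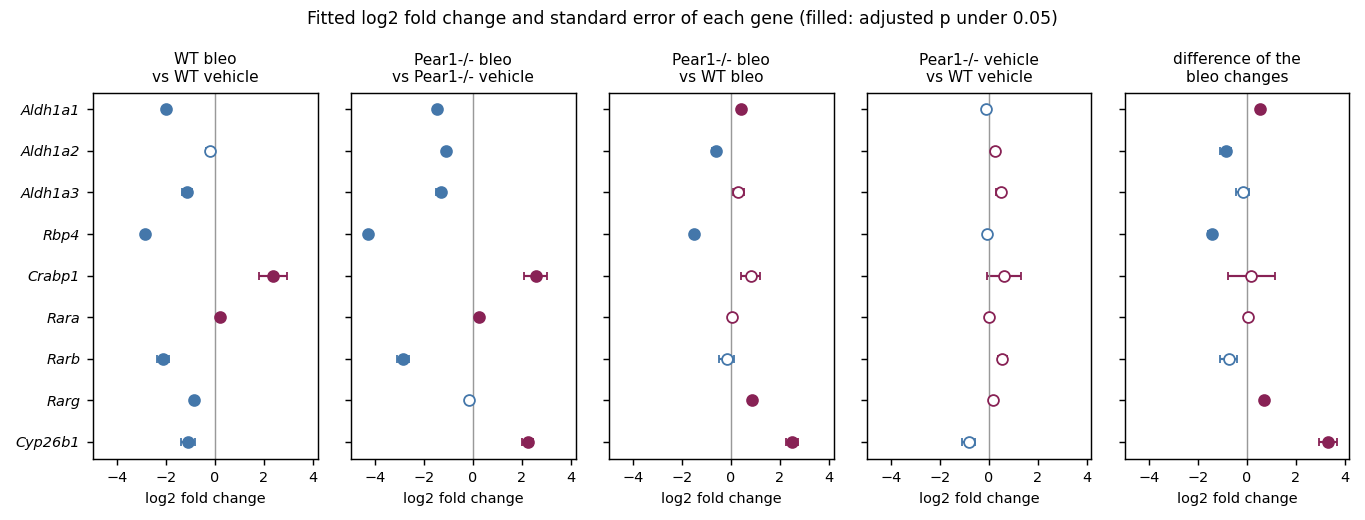
Fitted log2 fold change (horizontal axis) of each gene in 4 comparisons, and the difference between the bleo changes of both genotypes (Pear1-/- minus WT, right panel), with bars for the SE and filled points for adjusted p under 0.05. Rbp4 lies farthest to the left in both bleo panels, and Cyp26b1 lies at -1.11 in WT and at 2.23 in Pear1-/-.

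The genotypes under bleo. Between the libraries labelled Pear1-/- bleo and WT bleo, 3 of the 9 genes were higher in Pear1-/- bleo (Cyp26b1, Rarg and Aldh1a1) and 2 were lower (Rbp4 and Aldh1a2). Of all genes tested, 22.1% were higher and 24.0% were lower. Aldh1a3, Crabp1, Rara and Rarb did not pass. WT vehicle replicate 2 is no part of this contrast and bears on it only through the shared estimate of spread.

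Cyp26b1 had 153.5 ± 5.52 normalized counts in Pear1-/- bleo and 26.4 ± 4.58 in WT bleo (SD, n = 3). The log2 fold change was 2.52 (SE 0.25, adjusted p = 1.34e-07 by edgeR), and it lay between 2.24 and 2.63 over the 20 other settings tried. Rarg was at 690.1 ± 9.72 in Pear1-/- bleo and 381 ± 46 in WT bleo, with log2 fold change 0.84 (SE 0.08, adjusted p = 8.3e-08). As a percentage of Pdgfra its groups overlapped, at 28.3% to 29.5% and 24.5% to 29.9%. Aldh1a1 was at 1444 ± 28.7 and 1083 ± 27.8, with log2 fold change 0.40 (SE 0.06, adjusted p = 3.31e-05).

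Rbp4 was at 43.4 ± 5.51 in Pear1-/- bleo and 123 ± 11.1 in WT bleo (SD, n = 3), a log2 difference of -1.51 (SE 0.12, adjusted p = 9.98e-09 by edgeR). Aldh1a2 was at 103 ± 10.7 and 155 ± 8.68, with log2 fold change -0.60 (SE 0.16, adjusted p = 0.00485). In each of these 5 genes no Pear1-/- bleo library overlapped with a WT bleo library. Of the enzymes, Aldh1a1 was thus higher and Aldh1a2 lower, and Aldh1a3 did not pass (0.31, SE 0.21, adjusted p = 0.235). This split depended on the scale. As a percentage of the normalized count of Pdgfra in the same library, which itself differed between these groups, the means in Pear1-/- bleo and WT bleo were 60.4% and 79.7% for Aldh1a1, 4.31% and 11.4% for Aldh1a2, and 2.52% and 3.52% for Aldh1a3, lower in Pear1-/- bleo for all 3, with overlap between the groups for Aldh1a3.

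Crabp1 had 10 to 11 counts in WT bleo and 17 to 22 in Pear1-/- bleo. Its groups did not overlap. The pooled ratio per library depth was 1.76, with a 95% exact interval of 1.12 to 2.81 that covers counting error only. The fitted difference of 0.81 (SE 0.38) did not pass in edgeR over the 4 groups (adjusted p = 0.0926). It passed in 3 of the 20 other settings, namely with only the 2 bleo groups in the fit (adjusted p = 0.0319), in limma with a pseudocount of 8 (adjusted p = 0.0328) and without WT vehicle replicate 2 (adjusted p = 0.045), and its adjusted p ranged from 0.0319 to 0.341 over all 20. Rarb was at 20.9 ± 0.804 in Pear1-/- bleo and 23.6 ± 6.86 in WT bleo, and Rara at 579 ± 2.94 and 556 ± 49.4, with adjusted p = 0.653 and 0.648.

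Markers of other cell types moved with this contrast too. Beside the leukocyte and epithelial sums given above, the summed level was 12143 to 12246 CPM in WT bleo and 32148 to 33113 CPM in Pear1-/- bleo for 6 Pdgfra+ fibroblast markers, 157 to 161 and 432 to 458 CPM for 6 smooth muscle and pericyte markers, and 22.8 to 24.1 and 42.4 to 45.9 CPM for 5 mesothelial markers. The sum of 5 endothelial markers overlapped between the groups, at 166 to 179.8 and 179 to 190.4 CPM. Of the single markers, 7 of 8 for leukocytes and 3 of 5 for epithelium were lower in Pear1-/- bleo, 5 of 6 for fibroblasts and 4 of 5 for mesothelium were higher, and those of smooth muscle and pericytes were split, with 2 of 6 higher and 2 lower. The part of these in the changes of the retinoic acid genes was not tested.

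The difference between the bleo changes. A test of the interaction of genotype and bleo asks whether the change from vehicle to bleo differed between Pear1-/- and WT. In total, 5 of the 9 genes passed, 3 with a more positive change in Pear1-/- (Cyp26b1, Rarg and Aldh1a1) and 2 with a more negative one (Rbp4 and Aldh1a2), where 17.8% of all genes passed with a positive and 19.3% with a negative difference. Of these 5, Cyp26b1 had a positive and Rbp4 a negative difference past 2-fold, and 8.53% of all genes passed the test with such a positive and 6.98% with such a negative difference. The interaction shares its libraries with the comparisons above. Cyp26b1 had the largest value, 3.34 on the log2 scale (SE 0.37, adjusted p = 1.33e-06 by edgeR), which joins a fall in WT and a rise in Pear1-/-. Without WT vehicle replicate 2 it was 3.67.

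For Rarg the difference was 0.69 (SE 0.11, adjusted p = 0.000102) and for Aldh1a1 it was 0.53 (SE 0.09, adjusted p = 0.000121), both with a less negative change in Pear1-/-. For Rbp4 it was -1.43 (SE 0.15, adjusted p = 6.04e-07) and for Aldh1a2 it was -0.87 (SE 0.22, adjusted p = 0.00443), both with a more negative change in Pear1-/-. Without WT vehicle replicate 2 that of Aldh1a2 was -1.12. Rarb, at -0.74 (SE 0.36), did not pass with all libraries (adjusted p = 0.112), but was -0.98 (adjusted p = 0.0106) without WT vehicle replicate 2. As a percentage of Pdgfra, which was not tested, the mean of Aldh1a1 went from 96.3% to 79.7% in WT and from 97.0% to 60.4% in Pear1-/-. That of Rarg went from 15.4% to 28.0% and from 18.8% to 28.9%. On this scale both differences turned, while those of Cyp26b1, Rbp4 and Aldh1a2 kept their direction.

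The genotypes under vehicle. None of the 9 genes passed between Pear1-/- vehicle and WT vehicle in edgeR or with DESeq2's Wald test, and 3 of them (Aldh1a3, Rarb and Cyp26b1) had an unadjusted p under 0.05 in edgeR, as had 31.4% of all genes. By adjusted p, 1.95% of all genes were higher and 5.29% were lower. This comparison depended on WT vehicle replicate 2. For Aldh1a2, Aldh1a3, Rarb and Cyp26b1 it alone of the WT vehicle libraries lay within the range of the 3 Pear1-/- vehicle libraries. For Rbp4 and Rara it lay within that range too, as did WT vehicle replicate 1. When WT vehicle replicate 2 was left out, 5 genes passed. In that fit 22.8% of all genes were higher and 23.5% were lower, so that such calls were common there. Cyp26b1 then differed by -1.15 (log2, adjusted p = 1.36e-05, against -0.82 and 0.0613 with all libraries). Rarb had 0.80 (adjusted p = 0.000163, against 0.56 and 0.0681), Aldh1a3 had 0.71 (adjusted p = 0.000278, against 0.48 and 0.0778) and Aldh1a2 had 0.52 (adjusted p = 0.000593, against 0.27 and 0.222). Aldh1a1 had -0.14 (adjusted p = 0.0198, against -0.12 and 0.174). Rbp4, Rara, Rarg and Crabp1 did not pass either way.

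Levels between the genes were compared per length, as CPM per kb of exon, for which the exons of all GENCODE M21 transcripts of a gene were merged. In WT vehicle the order was Aldh1a1 at 100.07 ± 2.3 (SD, n = 3), Rbp4 at 75.2 ± 2.02, Rarg at 18.6 ± 0.0448, Rara at 12.6 ± 0.344, Aldh1a2 at 8.96 ± 2.45, Aldh1a3 at 2.59 ± 0.646, Rarb at 2.21 ± 0.575, Cyp26b1 at 1.23 ± 0.521 and Crabp1 at 0.269 ± 0.11. From Rara downward, neighbors in this order were within 2 SDs of each other, except Aldh1a2 and Aldh1a3. In WT bleo Aldh1a1 was first at 24.9 ± 0.593 and Rara second at 14.5 ± 1.3, followed by Rbp4 and, at 10.2 ± 1.24, Rarg, which lay within their spread of each other. In Pear1-/- bleo the second place was held by Rarg at 18.2 ± 0.341 and the third by Rara at 14.9 ± 0.0389, while Rbp4 was at 3.64 ± 0.476 and Cyp26b1 at 3.23 ± 0.121, within their spread of each other.

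The 3 Aldh1a genes together were at 112 ± 1.02 (WT) and 106 ± 4.43 (Pear1-/-) CPM per kb with vehicle, and 33.8 ± 0.799 (WT) and 39.5 ± 1.12 (Pear1-/-) with bleo (SD, n = 3). Aldh1a1 made up 86.6% to 91.7% (WT) and 86.0% to 86.5% (Pear1-/-) of this sum with vehicle, and 73.1% to 73.9% (WT) and 81.9% to 84.3% (Pear1-/-) with bleo. The share of Aldh1a2 was 22.1% to 23.4% in WT bleo and 12.2% to 14.0% in Pear1-/- bleo. The enzyme mix thus differed between the bleo groups in every library, with Aldh1a2 taking the larger share in WT.

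Of the receptor genes, whose sum was 33.4 ± 0.63 (WT) and 36.6 ± 0.977 (Pear1-/-) CPM per kb with vehicle and 25.1 ± 2.65 (WT) and 33.6 ± 0.36 (Pear1-/-) with bleo, Rarg held the largest share in 3 groups. It held 54.5% to 56.6% in WT vehicle and 53.8% to 54.6% in Pear1-/- bleo, but 39.5% to 41.1% in WT bleo, where Rara held 57.0% to 58.7%. Rarb held 5.25% to 8.37% in WT vehicle, 1.74% to 2.50% in WT bleo and 1.28% to 1.36% in Pear1-/- bleo. These shares carry the uncertainty of the bases that Rarb shares with Top2b.

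**Figure D3:**
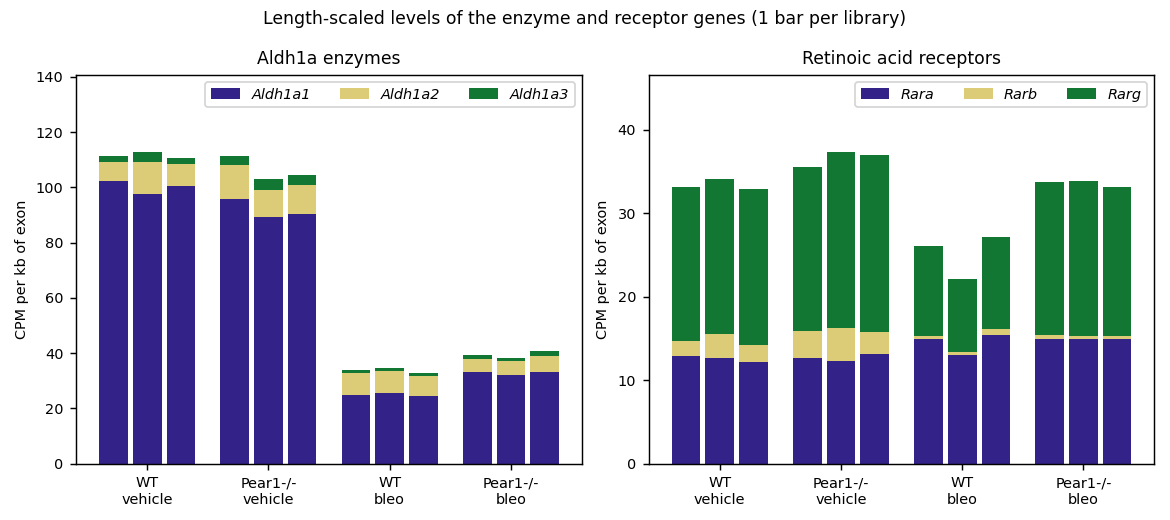
Summed CPM per kb of exon (vertical axis, from 0) of the Aldh1a enzyme genes (left) and the retinoic acid receptor genes (right), with 1 stacked bar per library in replicate order. The enzyme sum is lower in all 6 bleo libraries than in any vehicle library, and the receptor sum is lowest in the 3 WT bleo libraries, at a mean of 25.1.

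Other genes of the retinoid pathway. Of 39 further genes of the pathway, 33 had enough counts to be tested, and the 6 others were Ttr, Rbp7, Bco1, Cyp26a1, Cyp26c1 and Cdx1, with at most 3 to 16 counts in a library. In WT bleo compared to WT vehicle 10 were higher and 12 lower, in Pear1-/- bleo compared to Pear1-/- vehicle 6 were higher and 14 lower, and in Pear1-/- bleo compared to WT bleo 9 were higher and 13 lower. The shares of all genes were 31.4% higher and 36.5% lower, 29.1% and 33.1%, and 22.1% and 24.0% in the same order, so that the counts in WT bleo were near the background. The medians of the log2 fold changes were -0.19, -0.29 and -0.20, beside -0.07, -0.05 and -0.01 over all genes.

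Of the genes that take up, store and oxidize retinol, 6 fell and 4 rose among 16 tested in WT bleo, and 8 fell and 5 rose in Pear1-/- bleo. Over all genes, 36.5% were lower and 31.4% higher in WT bleo, and 33.1% and 29.1% in Pear1-/- bleo. The counts in WT were thus near the background. Lrat, which esterifies retinol for storage, had 2521, 1149 and 2768 normalized counts in WT vehicle and 1179, 1065 and 1101 in Pear1-/- vehicle. With bleo it had 234, 235 and 273 (WT) and 241, 214 and 229 (Pear1-/-). WT vehicle replicate 2 again lay with the Pear1-/- vehicle libraries. The log2 fold changes with bleo were -3.11 in WT and -2.29 in Pear1-/- (adjusted p = 2.06e-05 and 0.000177 by edgeR), and that in WT was -3.41 without WT vehicle replicate 2. Dgat1, which can also esterify retinol, fell in both genotypes as well (-1.06 in Pear1-/-).

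Adh7, an alcohol dehydrogenase that oxidizes retinol, had 1367 to 1629 (WT) and 1603 to 1720 (Pear1-/-) normalized counts with vehicle, and 202 to 257 (WT) and 84.8 to 98 (Pear1-/-) with bleo. Its log2 fold changes were -2.69 in WT and -4.20 in Pear1-/-, and -1.32 between the bleo groups (adjusted p = 1.01e-14, 1.67e-16 and 8.62e-09 by edgeR). Adh1, another such enzyme, had -1.76 and -1.94 with bleo, both past the test. Bco2, which cleaves carotenoids, was higher in WT bleo (1.04, or 0.78 without WT vehicle replicate 2) and lower in Pear1-/- bleo than in WT bleo (-1.49, adjusted p = 1.98e-05). Dhrs3, which turns retinal back into retinol, was 0.66 higher in WT bleo, and differed by -0.80 between the bleo groups (adjusted p = 9.25e-06).

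Of 11 tested genes for binding, breakdown and receptor partners, 6 rose and 1 fell in WT bleo, 1 rose and 2 fell in Pear1-/- bleo, and 8 were lower and 1 higher in Pear1-/- bleo than in WT bleo. The shares of all genes were 31.4% higher and 36.5% lower, 29.1% and 33.1%, and 22.1% and 24.0% in these comparisons. Fabp5, which carries fatty acids and can carry retinoic acid, rose in both genotypes (2.54 and 2.18, adjusted p = 2.07e-14 and 2.71e-13 by edgeR). Rxrb, a receptor partner, had 249 to 291 normalized counts in WT bleo and 122 to 154 in Pear1-/- bleo, a log2 fold change of -1.01 (adjusted p = 4.43e-06). The corepressor genes Ncor1 and Nrip1 and the coactivator genes Ncoa2 and Ncoa3 were also lower in Pear1-/- bleo (log2 fold changes -0.80, -0.62, -0.57 and -0.70). Crabp2, which delivers retinoic acid to the receptors, was the 1 gene higher, at 12 to 19 counts against 2 to 5 (1.74, adjusted p = 0.00993).

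Of 10 tested genes known to respond to retinoic acid, 8 fell and 1 rose in WT bleo, 6 fell and 1 rose in Pear1-/- bleo, and 6 were higher and 1 lower in Pear1-/- bleo than in WT bleo. Over all genes, 36.5% were lower and 31.4% higher in the first comparison, 33.1% and 29.1% in the second, and 24.0% and 22.1% in the third. The median log2 fold changes were -1.12, -0.66 and 0.60. Meis2, a homeobox gene, had 255 to 313 normalized counts in WT vehicle, 77.5 to 102 in WT bleo and 157 to 207 in Pear1-/- bleo, and was 1.01 higher (log2) in Pear1-/- bleo than in WT bleo (adjusted p = 3.47e-06 by edgeR). Its relative Meis1 was 0.65 higher (adjusted p = 8.65e-07). Rarres2, which encodes chemerin, fell with bleo by 1.76 in WT and by 1.44 in Pear1-/-. As a percentage of Pdgfra in the same library, the means in Pear1-/- bleo and WT bleo were 23.2% and 25.8% for Meis1 and 14.1% and 16.7% for Rarres2, lower in Pear1-/- bleo. For Meis2 they were 7.57% and 6.53%, with overlap, beside 6.13% in WT vehicle. These genes have other regulators too, and 4 of the 10 also stand in the lists above.

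Between the vehicle groups 5 of the 33 tested pathway genes passed, where 1.95% of all genes were higher and 5.29% were lower. Rxrb (0.63) and Dgat1 (0.30) were higher in Pear1-/- vehicle, and Stra6l (-2.06, or -2.46 without WT vehicle replicate 2), Ncoa1 (-0.53) and Dhrs3 (-0.39) were lower. When WT vehicle replicate 2 was left out 12 of the 33 passed, beside the shares of all genes given above for that fit. When any other vehicle library was left out, edgeR called none of them and no gene at all, while 2945 to 4536 of all genes had an unadjusted p under 0.05.

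**Figure D4:**
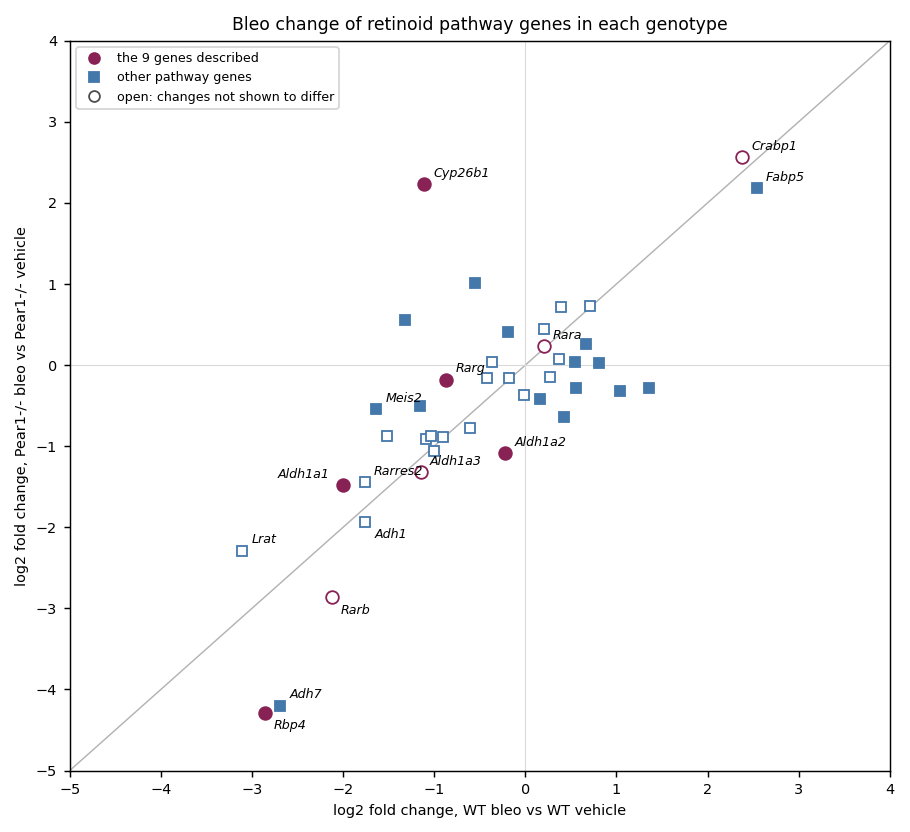
Log2 fold change with bleo in WT (horizontal axis) against that in Pear1-/- (vertical axis) for the 9 genes (circles) and the 33 tested pathway genes (squares), filled where the difference between them had adjusted p under 0.05. Points on the diagonal changed equally, Rbp4 and Adh7 lie together at the lower left, and Cyp26b1 lies above the diagonal, at -1.11 and 2.23.

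Genes with the most similar profile. For each of the 7 genes that changed more than 2-fold and passed the test in a comparison, the 3 genes with the smallest root mean square difference of standardized log2 CPM over the 12 libraries were taken from genes whose mean log2 CPM was 3 or more, about 10453 in number. For Aldh1a1 these were Vldlr, Crispld2 and Plscr4, at differences of 0.0437, 0.0559 and 0.0583. For Rbp4 they were Slc29a1, Adh7 and Rfx2, at 0.0804, 0.0895 and 0.0959, so that the second was itself an enzyme of retinol oxidation. Cyp26b1 was nearest to Epha3, Col6a3 and Ctnnal1 (0.18, 0.2 and 0.212). Rarb was nearest to Polg2, Ctsw and Ntrk2 (0.151, 0.155 and 0.155). Crabp1 was nearest to Grem1, Timm23 and Metap2 (0.166, 0.171 and 0.174), Aldh1a3 to Arl4a, Adamtsl3 and Lysmd2 (0.174, 0.18 and 0.183), and Aldh1a2 to Atf4, C2cd5 and Ms4a4b (0.204, 0.241 and 0.264). The libraries are the same for all genes, and the differences describe likeness of profile only.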

How the data were processed

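Bulk RNA-seq of sorted Pdgfra+ lung cells comprised 12 libraries, 3 in each of 4 groups taken from the deposited labels. The cDNA kit (SMART-Seq v4, for low input) does not mark strand. The authors aligned reads to GRCm38 with HISAT2, counts refer to a mouse transcriptome named only as mm10, and the counting program, the annotation release and the treatment of overlapping genes are not given in the sources used here. The authors deposited raw counts for 40760 genes and a second table of normalized values, a signal equal to the count divided by the library's DESeq2 size factor (largest relative difference of size factors 1.09e-10). Counts per library were 6702948 to 10447101, at which a floor of 3 counts is 0.290 to 0.404 CPM.

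From the counts, edgeR 4.0.16 (R 4.3.3) with TMM normalization, its default filter on low counts (17418 genes kept), one mean per group over all 4 groups and robust quasi-likelihood tests gave two-sided p-values, adjusted by the Benjamini-Hochberg method over all genes tested. The script was tested on simulated data. The standard error is the log2 fold change divided by the root of F. The genes named are all 9 members, pathway genes past 2-fold and adjusted p under 0.05, and the 3 nearest profiles of each member past both. A few pathway and marker genes outside this rule (Dhrs3, Ncor1, Nrip1, Ncoa1, Ncoa2, Ncoa3, Meis1 between the bleo groups, the vehicle values of Rxrb and Dgat1, and Top2b) were named after their values were seen, and some pathway genes are counted but not reported here by name. The members and gene lists were chosen with earlier results of these data known. Alternatives were DESeq2 1.42.0 (its size factors and its Wald test), limma 3.58.1 on log2 of the normalized value with pseudocounts of 1 and 8, no filter, only the compared groups, the replicate number as a block, each library left out, and edgeR without robust estimation, which was added after seeing the data. Replicate numbers were checked for pairing: none of 18 correlations of same-numbered libraries' deviations was above 0.1. Promoters came from RefSeq, and figures from matplotlib 3.10.9.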

Additional observations from a re-analysis of the deposited data

Results flagged for a closer look

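The change with bleo differed between Pear1-/- and WT by edgeR's test of the interaction in 5 of the 9 genes. The differences (Pear1-/- minus WT, log2) were 3.34 for Cyp26b1, 0.69 for Rarg, 0.53 for Aldh1a1, -1.43 for Rbp4 and -0.87 for Aldh1a2. Set against Pdgfra, those of Rarg and Aldh1a1 turned in the means, as given above. Of the 33 other pathway genes tested, 15 passed, where 17.8% of all genes passed with a positive and 19.3% with a negative difference, and 7 of these had a difference of more than 2-fold, 3 positive and 4 negative, beside 8.53% and 6.98% of all genes. It was 1.87 for Crabp2 (adjusted p = 0.0461, at 2 to 19 counts a library), 1.56 for Stra6l (adjusted p = 0.035), 1.10 for Meis2 (adjusted p = 6.45e-05), -1.06 for Rdh5 (adjusted p = 0.0226), -1.36 for Bco2 (adjusted p = 0.00334), -1.51 for Adh7 (adjusted p = 9.94e-08) and -1.64 for Rxrb (adjusted p = 3.22e-06).

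Stra6l, a gene related to the retinol transporter Stra6, had 54.6, 16.2 and 53.8 normalized counts in WT vehicle and 6.55 to 11.4 in Pear1-/- vehicle, and WT vehicle replicate 2 lay nearest to the Pear1-/- libraries. Rdh5, a retinol dehydrogenase, had 27.9, 76.1 and 51.5 in WT vehicle, a range that held all 3 Pear1-/- vehicle libraries except the highest. Without WT vehicle replicate 2 the difference was 1.96 for Stra6l, -1.45 for Rdh5 and -1.10 for Bco2, and that of Lrat, 0.82 with all libraries (adjusted p = 0.164), was 1.12 (adjusted p = 8.24e-12). The part of leukocyte, epithelial, fibroblast, mesothelial and smooth muscle and pericyte markers, whose summed levels also moved between the bleo groups, was not tested.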

How the results depend on the processing

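Between the vehicle groups, the number of the 9 genes passing was 0 with all libraries, 4 without the filter on low counts, and 0 to 5 with each library left out. For the other pathway genes it was 5 with all libraries, 9 without the filter, 0 with only the groups compared, and 0 to 12 with each library left out, 12 being the number without WT vehicle replicate 2. Of all genes, 5.60% were higher and 8.32% lower without the filter, against 1.95% and 5.29% with it. The cause was not tested. In the other comparisons both numbers stayed within 1.5 times of the reported ones. The replicate number used as a block gave 0 of the 9 genes between the vehicle groups and 8, 8 and 5 in the other comparisons of groups, as without it. No pairing by number was seen, since a library correlated best with its own number in 6 of 36 cases. With 3 libraries a group this check can miss a weak pairing.

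Of the log2 fold changes of the 9 genes under all alternatives, 856 kept direction and side of the threshold, 20 newly passed, 6 no longer passed and 9 changed sign. None of those that changed sign had passed the test. Without the filter these were Rbp4 between the vehicle groups (0.016) and Rara in the interaction (-0.048). With each library left out, Aldh1a2 in WT bleo against WT vehicle lay between -0.35 and 0.034, the latter without WT vehicle replicate 2. Between the bleo groups Rara lay between -0.025 and 0.097 and Rarb between -0.33 and 0.071. Rara between the vehicle groups lay between -0.013 and 0.037, and in the interaction Rara lay between -0.037 and 0.085 and Crabp1 between -0.0067 and 0.51. Depth limits Crabp1 most, at 1 to 4 counts in vehicle libraries.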

Other observations

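Set against Pdgfra in the same library, the gene of the sorting antigen, the retinoic acid genes spread differently. Aldh1a1 was at 93.2% to 103% of the normalized count of Pdgfra in WT vehicle and 93.6% to 101% in Pear1-/- vehicle, and at 75.7% to 83.0% in WT bleo and 59.6% to 61.2% in Pear1-/- bleo. The order of the bleo groups was thus the opposite of that of the normalized counts. Rarg was at 14.6% to 16.8% in WT vehicle, 24.5% to 29.9% in WT bleo and 28.3% to 29.5% in Pear1-/- bleo, so that the bleo groups overlapped. Cyp26b1 was at 0.726% to 1.59% in WT vehicle, 1.60% to 2.18% in WT bleo and 6.25% to 6.75% in Pear1-/- bleo, and Rbp4 was at 18.4% to 22.0%, 8.58% to 9.73% and 1.67% to 2.07% in the same groups. These ratios are a description with no test, since Pdgfra changed itself, and neither gene's length enters them.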
